A study of Mus musculus with 3 samples.

Results

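Mesothelial cells of the mouse bladder and of bladder assembloids were chosen by expression: they are the mouse cells whose UMIs (unique molecular identifiers, each standing for 1 captured transcript) for mesothelin (Msln), uroplakin 3B (Upk3b) and leucine-rich repeat neuronal 4 (Lrrn4) summed to at least 5 per 10000 UMIs of the cell. At least 3 such UMIs from at least 2 of the 3 genes were required, and cells with 5 or more UMIs per 10000 for Upk3a and Upk1a together, or for Krt5 and Krt15 together, were left out as urothelial. The members were thus selected on the measured counts of these 7 genes, whose levels are given as description only. This gave 111 members among 23925 mouse cells. The 7-day assembloids held 32 members of 8374 cells, the 1-day assembloids 26 of 8538 and adult bladder 53 of 7013.

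The 3 groups were profiled with 1 single-cell library each: assembloids 7 days after reconstitution (3 assembloids pooled), assembloids 1 day after reconstitution (3 pooled) and whole bladders of wild-type C57BL/6 mice aged 8 to 9 weeks (8 pooled). An assembloid is a bladder-like structure reconstituted in culture from cells of several kinds, and the labels give no strain for it. All 3 suspensions were made by enzymatic dissociation. With 1 library per group there is no estimate of the spread between samples, so no test was made. Every interval given here is an exact 95% interval that covers counting error only.

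The mesothelium is the single layer of flat epithelial cells that covers the outer, peritoneal face of the bladder. It secretes a lubricating surface layer and protease inhibitors, and it carries both keratins and mesenchymal genes such as Wt1 and Vim. In injury and in culture, mesothelial cells of many organs are known to lose epithelial genes and gain contractile and matrix genes, a shift called the mesothelial-to-mesenchymal transition.

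The start regions of 4 genes that the results below turn on are shown, because Upk3b and Lrrn4 were used to choose the cells while Slpi and C3 are 2 secreted products, not used for that, whose sums were lower in the 1-day members than in bladder. Each is the RefSeq promoter window on GRCm38.p6, from 250 bases before to 50 bases after the gene's start, written 5′ to 3′ on the gene's own strand. Upk3b lies on the plus strand at chr5:136038246-136038545, Lrrn4 on the minus strand at chr2:132880813-132881112, Slpi on the minus strand at chr2:164356458-164356757 and C3 on the minus strand at chr17:57228087-57228386. Capitals mark a TEAD motif (GGAATG, or CATTCC on the other strand) or a TATA motif (TATAAA, or TTTATA on the other strand). No match overlapped another.
Upk3b: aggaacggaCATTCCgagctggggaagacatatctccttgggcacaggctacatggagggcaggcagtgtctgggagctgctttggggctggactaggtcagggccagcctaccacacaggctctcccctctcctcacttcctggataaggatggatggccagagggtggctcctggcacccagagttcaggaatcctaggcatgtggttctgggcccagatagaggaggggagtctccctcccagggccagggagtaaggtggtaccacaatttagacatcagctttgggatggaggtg
Lrrn4: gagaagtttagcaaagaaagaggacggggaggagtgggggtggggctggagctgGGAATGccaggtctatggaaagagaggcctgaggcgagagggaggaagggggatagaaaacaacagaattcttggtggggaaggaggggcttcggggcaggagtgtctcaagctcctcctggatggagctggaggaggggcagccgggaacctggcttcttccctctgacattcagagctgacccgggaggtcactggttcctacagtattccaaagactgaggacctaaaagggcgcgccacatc
Slpi: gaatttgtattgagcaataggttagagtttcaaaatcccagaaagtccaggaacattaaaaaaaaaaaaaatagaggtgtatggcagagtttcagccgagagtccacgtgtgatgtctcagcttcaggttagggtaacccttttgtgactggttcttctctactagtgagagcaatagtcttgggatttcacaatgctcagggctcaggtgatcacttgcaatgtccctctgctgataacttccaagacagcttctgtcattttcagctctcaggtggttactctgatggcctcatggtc
C3: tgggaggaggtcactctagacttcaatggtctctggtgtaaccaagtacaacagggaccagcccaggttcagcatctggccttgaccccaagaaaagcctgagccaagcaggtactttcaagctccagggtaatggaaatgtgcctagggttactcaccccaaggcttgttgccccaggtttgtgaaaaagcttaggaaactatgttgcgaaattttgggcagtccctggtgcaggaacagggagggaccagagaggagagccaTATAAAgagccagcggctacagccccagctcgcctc
The Upk3b window held 1 TEAD motif at base 10 and the Lrrn4 window 1 at base 55, against 14.7% of 32851 RefSeq promoter windows with a match on either strand. The C3 window held 1 TATA motif at base 265, against 13.6% of all windows. In the Slpi window neither string of letters was present. A match is a description of the letters only. Of 5 genes looked up, 4 had an entry, and Msln is named only.

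Members formed 0.382% of the 7-day cells (interval 0.262 to 0.539), 0.305% of the 1-day cells (0.199 to 0.446) and 0.756% of the bladder cells (0.567 to 0.987). The median member had 5109.5 UMIs in 7-day assembloids (lowest 1766, highest 30575), 18047 in 1-day assembloids (8956 to 36533) and 10345 in bladder (3949 to 35795). The median mitochondrial share was 5.25%, 5.27% and 4.8% in the same order. Scrublet called 1 of the 7-day members, 0 of the 1-day members and 3 of the bladder members doublets, against 2.41%, 3.28% and 3.39% of the cells in those libraries. Between libraries, 114 barcodes were shared by the 7-day and 1-day assembloids, 30 by the 7-day assembloids and bladder and 21 by the 1-day assembloids and bladder, and 1 member (of bladder) had a shared barcode.

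The 7-day cells were placed by whether their nearest cells lay in the bladder or the 1-day library. Only these libraries were searched, so a cell unlike both was placed all the same. The 30 cells of the 1-day and bladder libraries nearest to every 7-day cell were found from the variable genes: 4477 of the 8374 cells had at most 5% bladder cells among them, 3640 had at least 95%, and 257 lay between. Of the 32 members, 8 were on the assembloid side, 23 on the bladder side and 1 between. The 8 deeper cells supplied 57.8% of the 7-day members' UMIs, so sums over the 7-day library mix the 2 sides. The main 7-day results are therefore also given by side. Over all cells, the median depth was 20017 UMIs on the assembloid side and 3368 UMIs on the bladder side. The sides were drawn from the same expression values, so their differences follow partly from the choice and are described only. Where the bladder-side 7-day cells came from was not tested.

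The marker level that chose the cells differed between libraries and is given as a description. The summed level of Msln, Upk3b and Lrrn4 had a lowest value, median and highest value of 6.91, 44.3 and 83.5 UMIs per 10000 in the 7-day members, 5.07, 6.11 and 35.7 in the 1-day members and 14.8, 57.4 and 97.8 in the bladder members. In the 1-day library 22 of 26 members lay between 5 and 10, whereas 52 of 53 bladder members were over 20. On the assembloid side of the 7-day library the lowest, median and highest levels were 6.91, 14.4 and 29, and on the bladder side 22.6, 54.7 and 83.5. All 3 genes had a UMI in 25 of 32 7-day members, 22 of 26 1-day members and 51 of 53 bladder members.

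**Figure D1:**
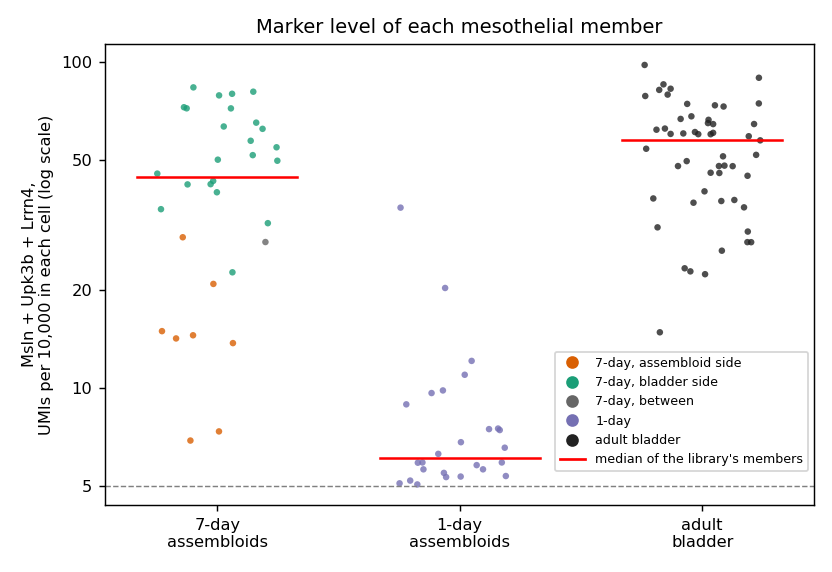
Summed UMIs of Msln, Upk3b and Lrrn4 per 10000 UMIs in each mesothelial member (log axis), by library from left to right 7-day, 1-day and bladder. Each point is 1 cell, 7-day cells are coloured by side, red lines are medians and the dashed line is the threshold of 5. The 1-day members crowd just above the threshold (median 6.11), while 52 of 53 bladder members lie over 20.

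Cells just outside the threshold were counted in each library. A cell under 5 that met every other criterion still held at least 3 marker UMIs, so only deep cells could be counted. The median kept cell had 9508 UMIs in the 7-day assembloids, 15210.5 in the 1-day assembloids and 7737 in bladder. The counts therefore follow partly from depth, and a gap in the 7-day and bladder libraries cannot be read from them. Among cells that met every other criterion, 3 in the 7-day assembloids lay under 5, the highest at 3.88 (lowest member 6.91). In the 1-day assembloids 74 lay under it, the highest at 4.88 (lowest member 5.07) and 26 of them between 3 and 5. In bladder 1 lay under it, at 4.43 (lowest member 14.8). The 1-day library therefore had no gap at the threshold. Of the cells that reached a sum of 5, many had UMIs of a single marker gene: 159 of 226 in the 7-day assembloids and 152 of 231 in bladder had only Upk3b, which umbrella cells of the urothelium also express, and 113 of 190 in the 1-day assembloids did.

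Levels are given as CPM, the UMIs of a gene per 1000000 mouse UMIs summed over the members of a library. Msln (chr17:25748613-25754378 on mm10), which codes for a surface protein that binds the mucin Muc16, had 1160.2 CPM in the 7-day members, 217 CPM in the 1-day members and 2174 CPM in the bladder members. Upk3b (chr5:136038496-136046487) had 1409.6, 316 and 2761 CPM in the same order, and Lrrn4 (chr2:132868305-132880891), a neuronal-type transmembrane protein used as a mesothelial marker, 484, 219 and 443 CPM. All other cells of these libraries held 0.485, 2.82 and 0.11 CPM of Msln and 0.119, 0.903 and 0.033 CPM of Lrrn4. Upk3b stood at 39.7, 13.9 and 173 CPM in them. All 3 genes stood lowest in the 1-day members. By side of the 7-day library, Msln had 456 CPM on the assembloid side and 2159.5 CPM on the bladder side, Upk3b 562 and 2577 CPM, and Lrrn4 444 and 539.9 CPM.

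Genes that the choice of cells did not use also marked the members of bladder and of the 7-day bladder side as mesothelial. The 1-day members and the 7-day assembloid side held less of them. A list of 20 mesothelial identity genes outside the choice summed to 3916 and 4429.7 CPM there, against 17663 CPM in bladder. In all other cells the list summed to 826 CPM in 1-day assembloids, 2225 CPM in 7-day assembloids and 8595 CPM in bladder. On the bladder side it summed to 25226 CPM, of which Slpi made up 13959 CPM. Over all other bladder cells, the 10 genes with the highest ratios at 200 CPM or more were Msln, Lrrn4, Muc16, Lgals2, Myl7, Slpi, Rspo1, Lgals7, Ptger3 and Dpp4. Muc16, the large surface mucin, had 313 CPM in members against 0.0551 CPM in other cells, and Rspo1, an R-spondin that boosts Wnt signalling, 678 against 0.562 CPM. In the 7-day members the 10 were Lrrn4, Slpi, Msln, Rspo1, Gpm6a, Lgals7, C3, Aqp5, Fgf1 and Wt1. On the assembloid side alone they were Lrrn4, Msln, Aqp5, Slpi, Ddc, Wt1, Angptl7, Des, C3 and Slc9a3r1, and on the bladder side Muc16, Lgals2, Slpi, Msln, Lrrn4, Rspo1, Gpm6a, Dpp4, Lgals7 and C3. In the 1-day members they were Lrrn4, Msln, Slpi, Clu, Upk3b, Atp1b1, Des, Krt8, Slc9a3r1 and Ezr, and the ratio of the tenth, Ezr, was 3.21 on the log2 scale (420.2 against 45.5 CPM). Msln, Lrrn4 and Upk3b stand in these lists partly through the choice of cells. On the assembloid side 99% of the Des UMIs and 82.6% of the Aqp5 UMIs lay in 2 cells. Wt1 had 121 CPM in the 1-day members against 6.05 CPM in other cells, while Krt19 was lower in members (14.1 against 138 CPM) and Gpm6a, Rspo1 and Muc16 were at 14.1, 16.1 and 12.1 CPM. The label therefore holds in part for the 1-day cells, which are called 1-day members here, and for the assembloid-side cells.

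Urothelial, glial and immune markers were lower in members than in other cells, while fibroblast markers were higher in members of 7-day assembloids and bladder. The 10 urothelial markers summed to 134 CPM in the 7-day members, 24.1 in the 1-day members and 112 in the bladder members, with 1, 7 and 1 of 10 at 0, against 2881, 647 and 13333 CPM in the other cells. Upk3a, Upk1a, Krt5 and Krt15 are among these markers and were capped by the choice of members, so this difference follows at least partly from the choice. The 7 immune markers summed to 7.23, 2.01 and 8.94 CPM, against 223, 199 and 117 CPM in other cells, with Ptprc at 0 in the members of all 3 libraries. The 6 glial markers summed to 3.61, 0 and 10.4 CPM, against 24.1, 73.5 and 96.4 CPM, and the 5 pericyte markers to 39.8, 0 and 46.2 CPM, against 65.7, 15.3 and 239.7 CPM. The 6 endothelial markers summed to 325, 103 and 204 CPM, against 279, 237 and 459 CPM in other cells, with 0, 3 and 0 of them at 0. The 6 smooth muscle markers summed to 1569, 939 and 258 CPM, against 1393, 1887 and 458 CPM. Des (desmin) made up 1428 and 738 CPM of the assembloid sums, and Myh11, the smooth muscle myosin, was at 0, 8.04 and 80.5 CPM. The smooth muscle sum was 2624 CPM on the assembloid side of the 7-day library and 122 CPM on the bladder side. The 8 fibroblast markers summed to 9422, 4614 and 21526 CPM, against 6396, 5035 and 5276 CPM in other cells, and to 4461 CPM on the assembloid side and 16083 CPM on the bladder side. Dcn (decorin) made up 5584, 1069.5 and 14894 CPM of the fibroblast sums, while Pdgfra stood at 10.8, 10.1 and 2.98 CPM and Lum at 3.61, 6.03 and 56.6 CPM. The part of these markers in the differences below was not tested.

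The first comparison set the 1-day members against the bladder members. A gene was measured when the library with more of it reached 50 CPM. It counted as higher or lower past 2-fold when its ratio was at least 2 and its counting interval left out 1. Log2 ratios had 0.5 counts added to each sum. Of 3884 genes measured, 836 (21.5%) were higher and 935 (24.1%) lower in the 1-day members, and the median over all of them was 0.10. Of 19 measured mesothelial identity genes outside the choice of cells, 1 was higher and 13 were lower, with a median log2 ratio of -3.07. Calb2, the other identity gene, had 0 UMIs in the members of all 3 libraries. Over the same 19 genes the median was -0.82 in all other cells and -1.48 in the fibroblast set, the other cells with Dcn, Lum and Pdgfra summing to at least 5 per 10000, 3 or more UMIs from at least 2 of these genes and low urothelial sums.

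**Figure D2:**
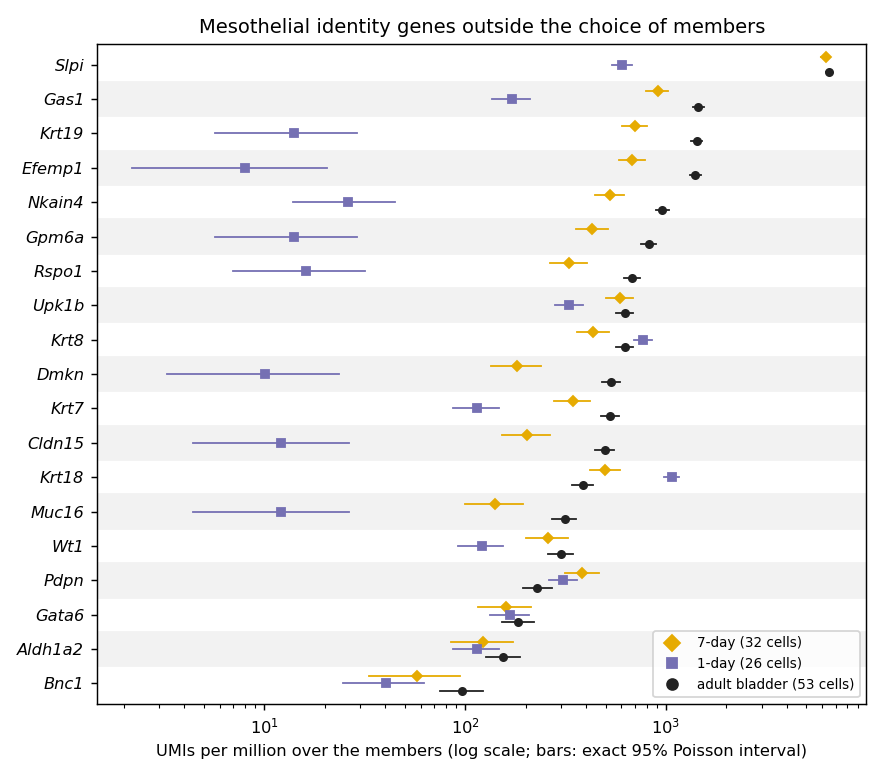
Level of 19 mesothelial identity genes in CPM over the members (log axis), with exact Poisson intervals, where diamonds are 7-day, squares 1-day and circles bladder members. Krt18 is highest in the 1-day members (1069.5 CPM), while Krt19, Efemp1, Gpm6a, Rspo1, Dmkn, Cldn15 and Muc16 lie under 20 CPM there and Slpi lies at 603 CPM.

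Keratins parted in the 1-day members. Krt18, a simple-epithelium keratin, had 1069.5 CPM (981 to 1164) in the 1-day members against 384 CPM (339 to 434) in bladder, a log2 ratio of 1.47 (1.26 to 1.70). Its usual partner Krt8 differed less, at 766 against 623 CPM (0.30, interval 0.09 to 0.50). Krt19 had 14.1 CPM (5.66 to 29) against 1425 CPM (1336 to 1518), a log2 ratio of -6.56. It had a UMI in 3 of 26 1-day members and in 53 of 53 bladder members, which is 2.01% against 87.8% expected after thinning each cell to 1700 UMIs. Krt7 was also lower, at 115 against 528 CPM. In the urothelial set (other cells in which either urothelial sum reached 5 per 10000 with 3 or more UMIs, with median depths of 5026 UMIs in 1-day assembloids and 21202 in bladder) Krt19 was found in 98% of 1-day cells and 98.5% of bladder cells.

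Surface and secreted products of the mesothelium were lower in the 1-day members. Slpi (chr2:164354070-164389095, minus strand, an annotated model longer than the RefSeq one whose start is shown above), the secretory leukocyte protease inhibitor, had 603 CPM (537 to 675) in the 1-day members against 6470.2 CPM (6279 to 6666) in bladder, a log2 ratio of -3.42 (-3.60 to -3.25). Per cell it spanned 0, 3.19 and 65.9 UMIs per 10000 (lowest, median, highest) in the 1-day members and 0, 30.1 and 365 in bladder, so the cells of the libraries overlap. Gpm6a, a membrane glycoprotein, had 14.1 against 819.6 CPM, and Rspo1 16.1 against 678 CPM. Efemp1 (fibulin 3) had 8.04 against 1399 CPM, Dmkn (dermokine) 10.1 against 533 CPM and Muc16 12.1 against 313 CPM. The log2 ratios of these 5 genes lay between -7.27 for Efemp1 and -4.59 for Muc16.

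Of the 19 identity genes 5 were not past 2-fold. These were Gata6, Aldh1a2, Pdpn, Upk1b and Krt8. Wt1, a transcription factor of the embryonic and adult mesothelium, was among the lower ones, with 121 CPM (92 to 155) in the 1-day members against 299.5 CPM (259.5 to 344) in bladder, a log2 ratio of -1.30. Gata6 had 167 against 183 CPM (-0.13, interval -0.55 to 0.28) and Aldh1a2, which makes retinoic acid, 115 against 155 CPM (-0.43, interval -0.93 to 0.04). Podoplanin (Pdpn) had 308 against 229 CPM (0.42, interval 0.09 to 0.75), and Upk1b 329.7 against 624 CPM (-0.92, interval -1.19 to -0.66). Of the separate list of transcription factors, 8 were measured, of which 1 was higher and 4 were lower (median -1.56).

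Complement and antigen presentation genes were lower in the 1-day members, and in the other cells too. Of 9 measured complement genes 8 were lower and 0 higher (median -3.72, against -2.83 in other cells and -4.24 in the fibroblast set). C3 (chr17:57203970-57228136), the central complement protein, had 66.3 CPM (45.7 to 93.2) against 6604 CPM (6411 to 6802), and no 1-day member (highest 4.19 UMIs per 10000) reached the lowest bladder member (8.09). The complement C1 inhibitor Serping1 had 135 against 1788 CPM. All 7 measured antigen presentation genes were lower (median -3.44, against -2.25 and -3.01 in the other 2 sets), with H2-K1 at 113 against 1229 CPM and B2m at 195 against 826 CPM.

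IGF-binding proteins and the retinoid-induced Rarres2 stood far apart. Igfbp5 had 0 UMIs in all 26 1-day members against 2651 CPM in bladder, where 53 of 53 cells had a UMI (89.4% expected after thinning, against 38.1% and, thinned, 4.71% in the bladder urothelial set). This is at least 439.5-fold lower with the 0 set at 3 counts over the library. Igfbp6 had 215 against 13712 CPM. Of 8 measured IGF genes 6 were lower and 1, Igf1, was higher (64.3 against 17.9 CPM, an interval on the log2 scale of 0.85 to 2.94). Rarres2, the chemoattractant chemerin, had 12.1 against 4827 CPM. The flavin monooxygenase Fmo2 had 4.02 against 1888 CPM, and Fxyd3, a regulator of the sodium pump, 0 against 1186 CPM (at least 197-fold lower). Igfbp5 stood at 22.2 CPM in the other 1-day cells and Fxyd3 at 87.1 CPM.

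Immediate early genes, which code for quickly induced transcription factors and their partners, were also lower, in members and in other cells. Of 15 measured, 13 were lower and 0 higher in the 1-day members (median -2.87, against -2.54 in other cells and -3.34 in the fibroblast set). Fos had 50.3 against 1685 CPM, Egr1 56.3 against 889.6 CPM and Atf3 0 against 429 CPM (at least 71.2-fold lower). Of 10 heat shock genes 2 were higher and 4 lower. The chaperones Hspa1a and Hspa1b had 8.04 against 1150.4 CPM and 8.04 against 1085 CPM.

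Genes of the mesothelial-to-mesenchymal transition were higher in the 1-day members. Of 14 measured, 12 were higher and 0 lower, with a median log2 ratio of 2.66, against 3.09 in all other cells and 2.61 in the fibroblast set. Tagln (transgelin, an actin-binding contractile protein) had 6144 against 781 CPM, and its lowest, median and highest values per cell were 2.03, 37.4 and 219 UMIs per 10000 in the 1-day members and 0, 1.68 and 75.2 in bladder. Acta2, smooth muscle actin, had 4073 against 714 CPM. Thbs1 (thrombospondin 1) had 635 against 20.9 CPM. Vim was not past 2-fold, at 2766 against 5065 CPM (-0.87, interval -0.96 to -0.78), nor was Twist1, at 64.3 against 52.2 CPM.

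**Figure D3:**
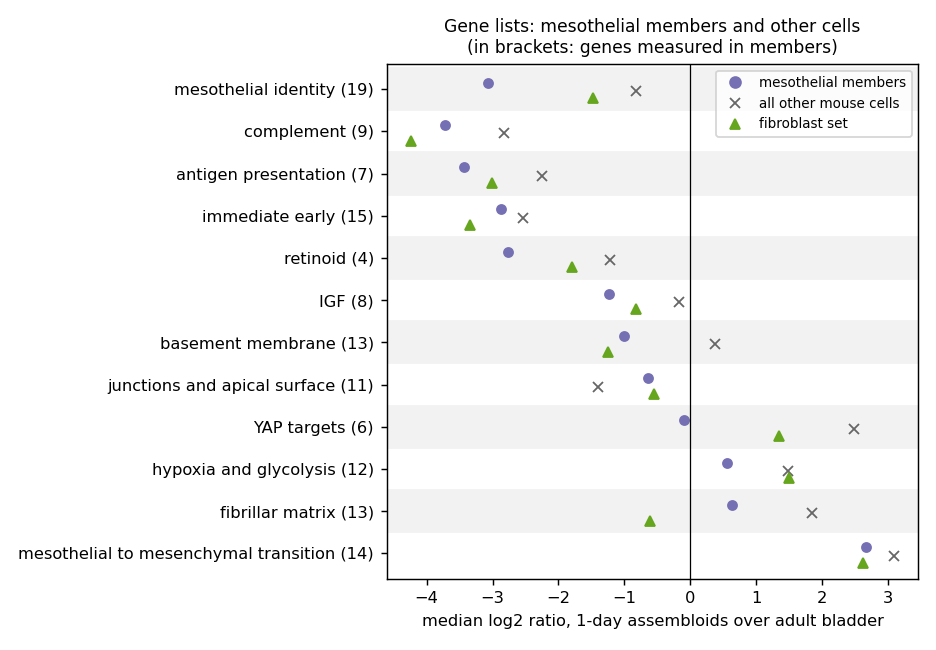
Median log2 ratio of 1-day assembloids over adult bladder for 12 gene lists, in mesothelial members (circles), all other mouse cells (crosses) and the fibroblast set (triangles), where the number of genes measured in members is in brackets. The identity list lies lower in members than in the other sets (-3.07, against -0.82 and -1.48), and the transition list lies on the right in all 3 (2.66, 3.09 and 2.61).

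Matrix genes went both ways. Fibronectin (Fn1) had 2328 against 112 CPM (log2 ratio 4.37, interval 4.04 to 4.74), and the protease inhibitor Timp1 2471 against 221 CPM. Of 13 fibrillar matrix genes 6 were higher and 3 lower. Col3a1 had 989 against 4515 CPM, and the matrix protein Sparc 6886 against 7202 CPM, a log2 ratio of -0.06. Of 13 basement membrane genes 2 were higher, the collagen IV chains Col4a1 (877 against 124 CPM) and Col4a2 (348 against 71.5 CPM), and 7 were lower, among them Lamb2 (4.02 against 218 CPM) and Col18a1 (2.01 against 148 CPM). Over the same 13 genes the median was 0.37 in other cells and -1.25 in the fibroblast set.

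Cell cycle genes were found in the 1-day members, and the other cells differed from bladder in the same direction. The 11 genes of the G2/M list summed to 768 CPM in the 1-day members against 5.96 CPM in bladder, so that each gene measured reached 50 CPM through the 1-day members alone and no count of them is read. Cdk1, the mitotic kinase, had 173 against 1.49 CPM and a UMI in 16 of 26 1-day members and 1 of 53 bladder members (19.6% against 0.307% expected after thinning, and 2.15% against 0.0276% in the urothelial set). Ube2c had 109 against 0 CPM (at least 24.3-fold higher) and Mki67 50.3 against 0 CPM. The cell cycle inhibitors Cdkn2a and Cdkn2b had 84.4 against 0 CPM and 125 against 0 CPM (at least 18.9-fold and 27.9-fold higher), and Hmga2, a chromatin protein of proliferating embryonic cells, 322 against 0 CPM. Over the 8 G2/M genes measured, the median log2 ratio was 6.16 in members and 5.18 in all other cells. It was also positive in the fibroblast set. In members, 5 of the 8 genes had 0 UMIs in bladder, so the size of 6.16 depends on the count added to each sum. With those zeros set to 3 counts the median in members was 4.29. The genes were also measured through the 1-day members, so only the shared direction is read, not which set differed more. For the list of cell cycle inhibitors and Hmga2 the median was 1.10 in members, 1.10 in other cells and 1.19 in the fibroblast set.

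Among the named genes Ctla2a had the highest ratio. It codes for a cysteine protease inhibitor and had 2831 CPM in the 1-day members and 0 in bladder, at least 633-fold higher, with a UMI in 26 of 26 1-day members and 0 of 53 bladder members (interval up to 6.72%), which is 83.3% and 0% expected after thinning. Its level in all other cells was 308 CPM in 1-day assembloids and 73.8 CPM in bladder, and 6.14% of the 1-day urothelial set and 2.74% of the bladder urothelial set had a UMI. Ankrd1, a target of the YAP coactivator, had 251 against 0 CPM. Of 6 measured YAP targets 2, Ankrd1 and Axl, were higher and 1, Crim1, was lower (median -0.09, against 2.48 in other cells and 1.34 in the fibroblast set). Wnt4, a secreted Wnt ligand, had 314 against 93.9 CPM. Saa3, an acute-phase protein, had 155 against 0 CPM and was at 0 in 15 of 26 1-day members.

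**Figure D4:**
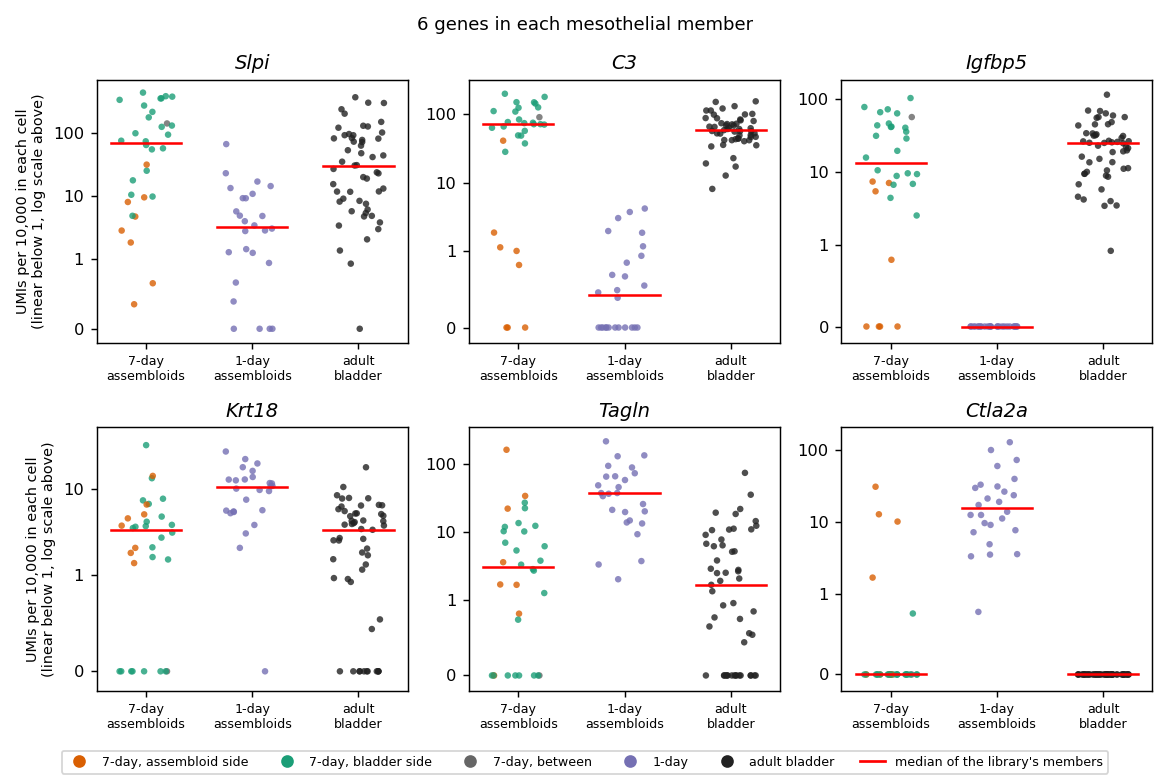
UMIs per 10000 of Slpi, C3, Igfbp5, Krt18, Tagln and Ctla2a in each mesothelial member (axis linear below 1 and logarithmic above), by library from left to right 7-day, 1-day and bladder, with 7-day cells coloured by side and red lines at the medians. C3 separates 1-day members (highest 4.19) from bladder members (lowest 8.09), Ctla2a is at 0 in all 53 bladder members, and 7-day cells of the bladder side lie among the bladder cells.

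The other comparisons set the 7-day members against the bladder members and the 1-day members. Over bladder, 398 of 3701 genes (10.8%) were higher and 328 (8.86%) lower in the 7-day members. Over the 1-day members, 502 of 3657 (13.7%) were higher and 269 (7.36%) lower. Of 19 identity genes 0 were higher and 6 lower over bladder (median -0.67, against -0.87 in other cells and -1.48 in the fibroblast set), and 12 were higher and 1, Krt18, lower over the 1-day members (median 2.40, against 0.62 in other cells and 0.12 in the fibroblast set). Slpi had 6235 CPM in the 7-day members (5944 to 6536), against 603 CPM in the 1-day members and 6470.2 CPM in bladder. C3 had 3828, 66.3 and 6604 CPM, and Krt19 701, 14.1 and 1425 CPM. In each of these 3 genes the 7-day sum lay between the 1-day and bladder sums, but it mixes the sides. Without the bladder-side cells, the identity median was -2.13 over bladder and 0.97 over the 1-day members.

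The 23 bladder-side members of the 7-day library were close to the bladder members, a likeness that their choice by nearest cells partly sets. Over bladder, 105 of 3695 genes (2.84%) were higher and 67 (1.81%) lower, and of 19 identity genes 1, Slpi, was higher and 0 lower (median -0.04). Slpi had 13959 against 6470.2 CPM (log2 ratio 1.11, interval 1.03 to 1.19), the extracellular peroxidase Gpx3 had 705 against 283 CPM, and Wt1 287 against 299.5 CPM (-0.04, interval -0.64 to 0.48). Of 10 complement genes, 15 immediate early genes and 8 transition genes 0 were past 2-fold either way. Fos had 1724 against 1685 CPM (0.04, interval -0.19 to 0.25). The median depth of the bladder-side members was 3672 UMIs, against 10345 UMIs in bladder members. Their summed depth was 114840 UMIs against 671080, which limits how many genes can be called past 2-fold. They formed 0.632% of the 3640 cells on that side (0.401 to 0.947).

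The 8 assembloid-side members differed from bladder in the direction of the 1-day members, a likeness that their choice by nearest cells partly sets. They formed 0.179% of that side's 4477 cells (0.0772 to 0.352). Over bladder, 726 of 3797 genes (19.1%) were higher and 749 (19.7%) lower. Of 19 identity genes 1, Pdpn, was higher and 12 were lower (median -2.15), and 9 of 14 transition genes were higher and 1, Vim, lower (median 1.97). The transition count rests largely on 2 cells high in desmin: without them 5 of 12 were higher and 1, Acta2, lower (median 0.38), and the identity median was -1.48. Per cell, Tagln had a median of 2.66 UMIs per 10000 on this side, against 37.4 in the 1-day members and 1.68 in bladder, and Acta2 of 2.28, against 14.8 and 1. Slpi had 606 against 6470.2 CPM, Muc16 6.25 against 313 CPM and Igfbp6 893 against 13712 CPM. Fn1 had 2668 against 112 CPM, and Timp1 2443 against 221 CPM (1829.8 and 527 CPM without those 2 cells). Set against the bladder-side members, 562 of 4006 genes (14.0%) were higher and 686 (17.1%) lower on the assembloid side, and of 19 identity genes 0 were higher and 12 lower.

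Some identity genes that were not past 2-fold over bladder on the assembloid side are given with their intervals. Wt1 had 237 against 299.5 CPM (log2 ratio -0.32, interval -0.88 to 0.17), Upk1b 637 against 624 CPM (0.03, interval -0.30 to 0.34) and Gata6 199.9 against 183 CPM (0.14, interval -0.48 to 0.70). Krt18 had 549.8 against 384 CPM (0.52, interval 0.15 to 0.87). Wt1 had a UMI in 8 of 8 of these cells and in 44 of 53 bladder members, which is 30.9% against 37.7% expected after thinning (0.0198% and 0.0163% in the urothelial set).

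Set against the 1-day members, the assembloid side differed in fewer genes. Of 3349 genes 212 (6.33%) were higher and 128 (3.82%) lower, and of 14 measured identity genes 4 were higher and 1, Krt8, lower (median 0.91). The 4 were Krt19 (319 against 14.1 CPM), Gpm6a (106 against 14.1 CPM), Rspo1 (119 against 16.1 CPM) and Nkain4 (93.7 against 26.1 CPM). Krt19 was at 0 in 3 of the 8 cells and Gpm6a in 2. Krt19 had a lowest, median and highest value of 0, 1.03 and 12.4 UMIs per 10000. Slpi had 606 against 603 CPM (0.01, interval -0.34 to 0.34) and Fn1 2668 against 2328 CPM (0.20, interval 0.03 to 0.36). Timp1 had 2443 against 2471 CPM, but its median per cell was 5.56 UMIs per 10000 on this side against 22 in the 1-day members, and without the 2 cells high in desmin it was lower past 2-fold (527 CPM, log2 ratio -2.22). Of 9 hypoxia genes and 4 antigen presentation genes 0 were past 2-fold. Without those 2 cells H2-D1 was higher (log2 ratio 1.53) and B2m lower (-1.05) past 2-fold, of the 4 antigen presentation genes.

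**Figure D5:**
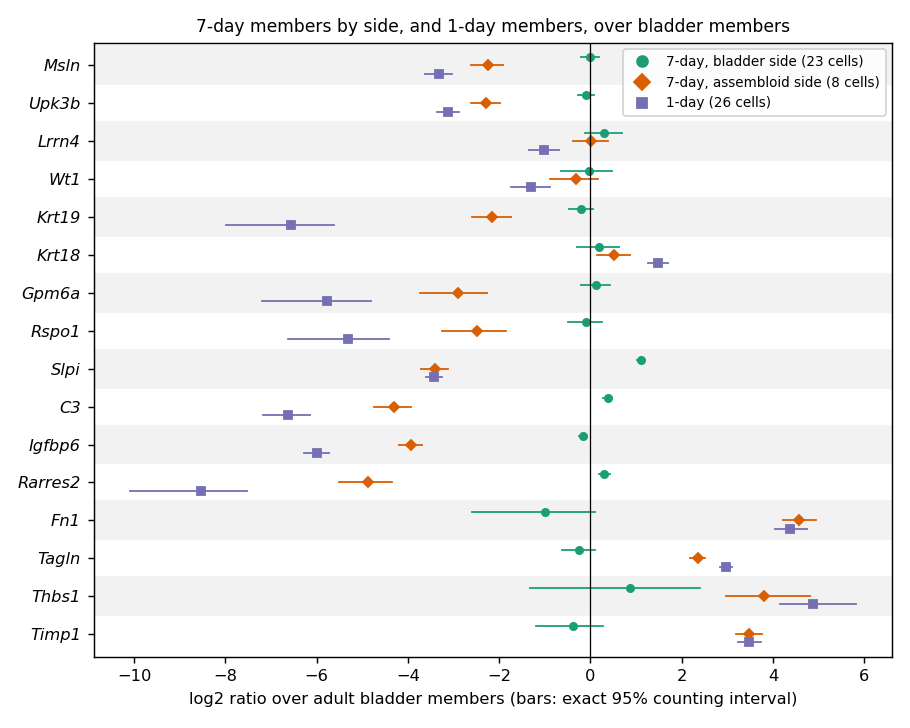
Log2 ratio over the bladder members of 16 genes in the 7-day members of the bladder side (circles), the 7-day members of the assembloid side (diamonds) and the 1-day members (squares), with exact counting intervals. Bladder-side cells lie near 0 for most genes with Slpi at 1.11, and for Krt19, Gpm6a and Rspo1 the assembloid side lies between the 1-day members and 0. Most of the assembloid side's Tagln and Timp1 (91.2% and 86.4% of UMIs) lies in 2 cells.

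Of 7 IGF genes 2, Igfbp5 and Igfbp6, were higher and 0 lower on the assembloid side (median 0.38). Igfbp5 had 256 CPM on the assembloid side against 0 in the 1-day members and Igfbp6 893 against 215 CPM. Of 6 chemokine and cytokine genes 2 were higher and 2, Cxcl12 and Saa3, lower (median 0.06). The chemokine Ccl2, which draws monocytes, had 519 against 96.5 CPM, and was at 0 in 0 of the 8 cells. Cxcl5, a neutrophil chemokine, had 199.9 against 4.02 CPM. Ctla2a was lower, at 656 against 2831 CPM, and Ankrd1 and Saa3 were at 0 in all 8 cells, against 251 and 155 CPM. Of 9 G2/M genes 0 were higher and 3 lower, among them Cdk1 (50 against 173 CPM), while Birc5 (131 against 94.5 CPM) and Cdc20 (119 against 66.3 CPM) were not past 2-fold.

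Single cells decided some of the assembloid-side values. The cell that Scrublet called a doublet held 40.8 of C3 per 10000 UMIs, where the other 7 cells had at most 1.87, and 13.59 of the endothelial gene Emcn, where the others had 0. Without it C3 had 53.7 CPM, against 331 CPM with it, and was not higher than in the 1-day members (log2 ratio -0.24). Rarres2 was then at 33.6 CPM, against 162 CPM with it, and Igfbp5 at 235 CPM. Leaving the cell out changed the count of genes past 2-fold over bladder to 772 higher and 744 lower, and of identity genes over the 1-day members to 7 of 15 higher. A pair of other cells, with 37.2% of the side's UMIs, carried Des at 80.20 and 50.70 and the water channel Aqp5 at 26.62 and 21.26 UMIs per 10000. They held 99% of the side's Des UMIs, 92% of Acta2, 91.2% of Tagln, 86.4% of Timp1, 82.6% of Aqp5 and 56.9% of Fn1, but 3.09% of Slpi and 6.02% of Ccl2. Without this pair Acta2 had 338 CPM and was lower than in bladder past 2-fold (log2 ratio -1.06), and Tagln had 557 CPM (-0.48). Over the 1-day members, 10 of 14 transition genes were then lower and 1, S100a4, higher (median -1.53). With the pair, 3 of 14 were lower and 1 higher (median -0.62). Of 17 identity genes 9 were higher without the pair and 1, Krt18, was lower (median 1.17). Slpi had 935 CPM without the pair, Krt19 507, Gpm6a 169, Rspo1 69.6, Igfbp5 408, Cxcl5 318 and Ctla2a 368 CPM, each on the same side of 2-fold over the 1-day members as with it. Birc5 (209 CPM) and Cdc20 (189 CPM) were then higher past 2-fold. Scrublet called neither of the pair a doublet.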

How the data were processed

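Single cells were captured with the 10x Chromium Single Cell 3' kit v3, per the labels' protocols. The files deposited by the authors give UMI counts, not normalized, that Cell Ranger 3.1.0 wrote for a joint human GRCh38 and mouse mm10 gene set, per the file headers. The annotation release is not given in the sources used here. The libraries held 120301672 (7-day), 135955678 (1-day) and 93560608 UMIs (bladder). Mouse cells had at least 90% of UMIs on mouse genes, at least 500 genes and under 20% mitochondrial UMIs. Doublets were marked with Scrublet (scanpy 1.11.5) and kept.

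Counts were summed over members, scaled to CPM and compared as log2 ratios with 0.5 counts added and exact conditional binomial intervals (scipy 1.17.1), a calculation tested on simulated data. Shares have Clopper-Pearson intervals and levels Poisson intervals at 95%. A level of 0 was set to 3 counts over the members for bounds on a fold. Shares after thinning are those expected at 1700 UMIs per cell. Sides of the 7-day cells rest on 30 principal components of 2000 variable genes.

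The members and the 34 gene lists (413 genes) were chosen with earlier results of these data known. Named genes were, per comparison, the 8 highest and 8 lowest ratios at 200 CPM or more and up to 4 genes of each list, with the identity list always given. For members over other cells they were the 10 highest. Genes over 5 times higher in other cells were not named by this rule, and further list genes stand as context. Some genes that the list counts include are not reported here by name. Gene positions come from GENCODE vM21 (442 of 442 IDs matched) and promoter windows from RefSeq (GRCm38.p6). Alternatives were the marker level, the CPM minimum, the mean of cells in place of sums, and leaving out doublets, bladder-side cells or members with fibroblast genes.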

Additional observations from a re-analysis of the deposited data

How the results depend on the processing

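Shares of members moved beyond their counting interval with the marker level in the 1-day library (0.609% at 3 UMIs per 10000 and 0.0468% at 10), without the bladder side in the 7-day library (0.19%), and when members with Dcn, Lum and Pdgfra at 5 per 10000 were left out (0% in 7-day, 0.0937% in 1-day and 0% in bladder members), which left no comparison to make. For the 1-day over bladder members, genes past 2-fold numbered 470 higher and 477 lower at 100 CPM, 1599 lower at 20 CPM and 444 lower at a marker level of 10, where the identity median was -1.87. At level 10 the 1-day library kept 4 members, so every 1-day value at that level rests on 4 cells. For the 7-day over bladder members they numbered 182 higher and 151 lower at 100 CPM, 718 and 739 without the bladder side, 194 lower with the mean of cells and 216 lower at level 10, and the identity median was -0.14 with the mean of cells and -2.13 without the bladder side. For the 7-day over 1-day members they numbered 815 higher and 595 lower with the mean of cells, 247 and 126 at 100 CPM, 223 and 123 without the bladder side, 852 higher at 20 CPM and 235 higher at level 10, with identity medians of 2.83, 2.89 (100 CPM), 0.97 and 1.70. Named genes stayed within their counting interval in 863 of 934, 945 of 1078 and 898 of 1039 recomputed values (1-day over bladder, 7-day over bladder, 7-day over 1-day). Reversed at level 10 were Cd44 (-0.25) and Oasl2 (0.67) of 1-day over bladder, Cnn1 (-0.07) of 7-day over bladder, and Atf4 (0.60), Cdkn2b (2.10), Crabp2 (-0.08), Hist1h2ap (0.91), Mki67 (0.66), Oasl2 (-0.62), Tyms (0.18) and Ube2c (0.18) of 7-day over 1-day. Emcn (-0.32) reversed without doublets over bladder, and without the bladder side Aldh1a1 (-0.15), B2m (-0.06), Col3a1 (-0.02), Klf4 (-0.32) and Wnt5a (-0.35) did over the 1-day members. The cause was not tested. Both alternatives for the assembloid side were chosen after seeing the data. Without the doublet-called cell the identity medians were -2.25 over bladder and 0.68 over the 1-day members, and without the 2 cells high in desmin -1.48 and 1.17. No paired analysis was possible because each group has 1 library.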

Other observations

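Further gene lists were described for the 1-day members over the bladder members, read against 21.5% of all measured genes higher and 24.1% lower past 2-fold. All 6 measured interferon response genes, among them Isg15 and Bst2, were lower (median log2 ratio -1.61, against -0.97 in other cells and -1.59 in the fibroblast set). Of 12 hypoxia and glycolysis genes 4 (Pgk1, Ldha, Eno1 and the glucose transporter Slc2a1) were higher and 3 lower, with a median of 0.55 in members and 1.48 in other cells. Ldha, which makes lactate, had 671 CPM in the 1-day members against 140.1 CPM in bladder. Of 11 junction and apical genes 2, Cdh2 (N-cadherin, 105 against 2.98 CPM) and Msn (moesin, 414 against 118 CPM), were higher and 4 lower, among them the tight junction gene Cldn10 (10.1 against 282 CPM). Of 10 BMP and TGF-beta genes 3 were higher, among them the BMP-binding Bmper (115 against 0 CPM, at least 25.6-fold), and 4 lower. Of 7 chemokine and cytokine genes 4 were higher and 2 lower, with the alarmin Il33 at 4.02 against 265 CPM. All 3 amino acid stress genes past 2-fold (Asns, Phgdh and Psph, of 6) were higher. The median of the 6 was 1.30 in members, against 2.56 in other cells and 2.30 in the fibroblast set. Of 4 retinoid genes 3 were lower, of 7 Wnt genes 1 was higher and 4 lower, of 6 fibrinolysis genes 3 were lower, and of 8 transcription factors 1, Tead1, was higher and 4 lower. Of 13 respiratory chain genes 1 was higher and 0 lower.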
